A study of Canis lupus familiaris with 14 samples.

Results

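Translation initiation factors are the proteins that bring a ribosome, the initiator tRNA and a messenger RNA together. They were taken here as every gene of the array whose single annotated symbol begins with EIF and a digit between 1 and 6, without the EIF2AK kinases. The rule uses symbols only and found 44 of 15115 genes, read by 106 of 29254 probe sets that carry a single symbol. Of the 44, 43 passed a filter on dim genes, which asks for a signal of at least 100 on at least 3 arrays of a comparison, and 1, EIF4E1B, was at 100 or more on 1 of 14 arrays and was not tested. EIF4A1, EIF4G1, EIF3C and EIF4EBP3 had no probe set with a single annotated symbol and were not analysed here.

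Fine needle aspirates of lymph nodes from 10 dogs with lymphoma and 3 normal dogs were hybridised to 14 GeneChip Canine Genome V2.0 Arrays, and 1 normal dog gave both a left and a right node (3024l and 3024r). The lymphomas arose naturally in adult companion dogs of several breeds at 3 clinics (site codes FS, NE and RB), were sampled before an investigational PI3K inhibitor was given, and included 4 that had relapsed after chemotherapy. The normal nodes came from Beagles of a single colony, so colony and disease cannot be told apart, and neither can breed for any lymphoma but FS22, also recorded as a Beagle. The labels name 3 lymphomas T-cell (FS22, FS25 and NE45) and 7 B-cell, and the study sorted the same aspirates by genome-wide profile into class K-N (FS25, NE45, RB07 and RB10, n = 4), class E-J (FS21, FS22, NE41, NE42, RB03 and RB16, n = 6) and the 4 normal arrays. Because the classes were drawn from profiles that include these arrays, comparisons between classes are given as descriptions with no test. Values are log2 MAS5 signals averaged over the probe sets of a gene, and since probe sets differ in brightness, levels are compared between samples and never between genes. The differences were also computed under quantile normalization and with each array centred on its median.

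Most messenger RNAs enter translation through their cap. The cap is held by eIF4E, which joins the scaffold eIF4G and the helicase eIF4A, and small binding proteins keep eIF4E from eIF4G until the mTOR kinase, which lies below PI3K, phosphorylates them. The small ribosomal subunit carries eIF3, eIF1, eIF1A and eIF5, together with eIF2 bound to GTP and the initiator tRNA, and eIF2B recharges eIF2 for the next round. Lymphocytes raise protein synthesis when they are activated, and growing lymphoma cells depend on it as well.

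The markers of cell types differed between the classes and did not always follow the labels. The summed signal of 7 T-cell markers lay between 44600 and 63400 in K-N, between 2680 and 14300 in E-J and between 12500 and 29300 in normal nodes. For 7 B-cell markers the sums were 152 to 2430 in K-N, 8490 to 26700 in E-J and 5000 to 8710 in normal nodes. RB07 and RB10, labelled B-cell, thus carried T-cell markers at the level of FS25 and NE45, and FS22, labelled T-cell, carried most B-cell markers. In FS22 CD79A was at 10.09 and CD22 at 12.44, both within the range of the other E-J lymphomas, but MS4A1, which encodes CD20, was at 4.90, against 12.03 to 12.50 in the other E-J lymphomas. In K-N MS4A1 was at 10.89 in NE45 and 10.40 in RB10, within the normal range of 9.88 to 11.17. It was at 6.48 in FS25 and 2.89 in RB07, so this marker did not separate the classes. Macrophage and dendritic markers (9 genes) summed to 1140 to 3770 in K-N and 1680 to 5440 in E-J, below the 19500 to 65700 of normal nodes. The 8 markers of stroma and endothelium summed to 2340 to 7150 in K-N, 1500 to 4390 in E-J and 12100 to 16800 in normal nodes, with 1 marker under 100 on every array. For 7 genes of cycling cells the sums were 14600 to 20100 in K-N, 6740 to 17000 in E-J and 4890 to 7570 in normal nodes. Each of the B-cell, T-cell and macrophage markers reached a signal of 100 on at least 1 array. The part of these cell types in the results that follow was not tested, and in bulk aspirates fewer cells of a type and less RNA per cell cannot be told apart. Among the normals 3024l stood apart, with a 3' to 5' actin ratio of 4630 against 94.2 to 302 on the other arrays. It was left out of all tests, and its values are given beside the others. The share of probe sets with a signal of at least 100 was 47.2% to 55.7% per array.

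In most initiation factors the 10 lymphomas did not separate from the normal nodes. Of 43 members tested against normals 0063, 2970 and 3024r, EIF4ENIF1 alone rose and 0 fell at a limma adjusted p under 0.05, computed over 9295 genes, of which 1.19% rose and 3.85% fell. At an unadjusted p under 0.05, 2 members were higher and 1 was lower, beside 7.75% and 13% of all genes. The difference was positive for 30 of 43 members (69.8%), against 42.8% of all genes, and its median was 0.17 over the members and -0.13 over all genes. The count of positive members was 25 under quantile normalization and 37 under median centring, scalings that moved the median of all genes by 0.13 and 0.14. The 4 B-cell lymphomas that the study's methods set against the same 3 normals (FS21, NE42, RB03 and RB16) gave 2 members that rose, EIF1B and EIF4B, and 0 that fell among 42, where 3.48% of 8295 genes rose and 7.39% fell. Here 33 of 42 differences were positive (78.6%), against 46.8% of all genes, with a median of 0.34 over the members and -0.06 over all genes. These comparisons share their normals and 4 lymphomas, and their values are not independent of each other. The study picked its B-cell set by cytology, immunostaining and the lack of a marked T-cell signature in genome-wide profiles. The p-values of that set thus come from lymphomas chosen in part on their expression.

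**Figure D1:**
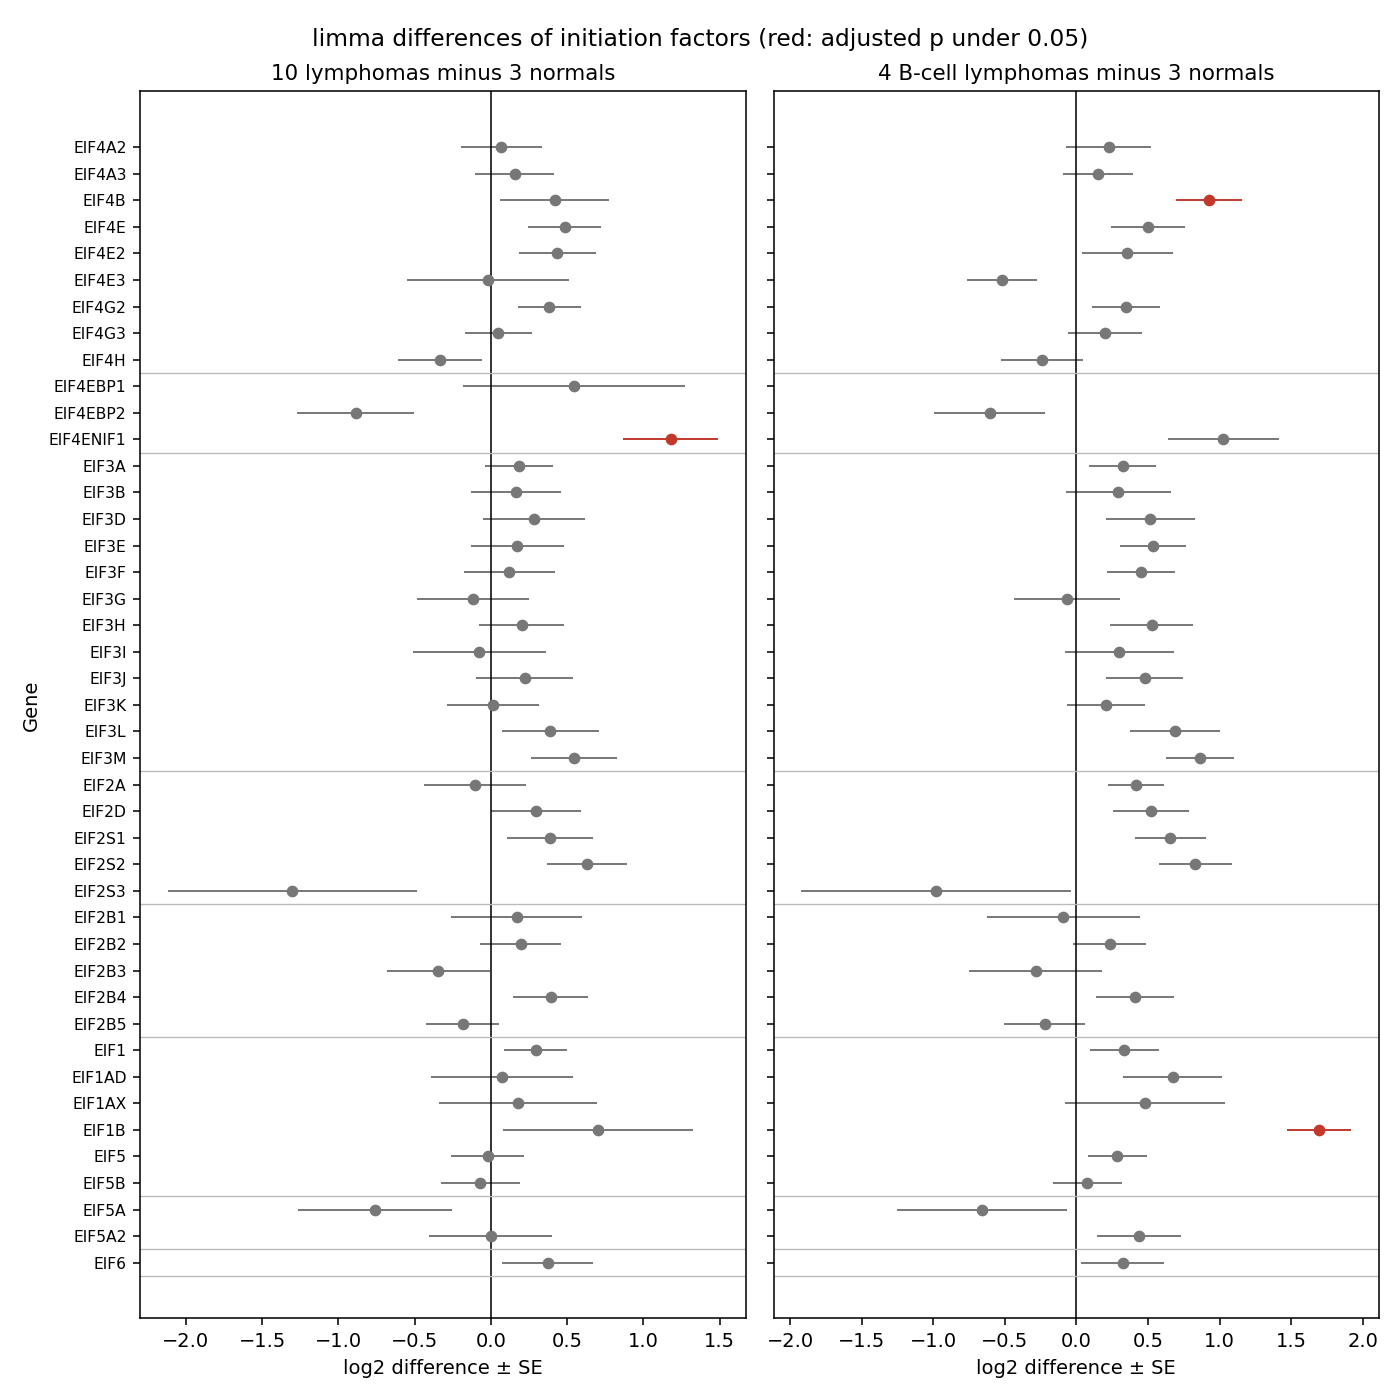
Difference in log2 signal with its standard error (horizontal axis) for each initiation factor, grouped by role, for 10 lymphomas minus 3 normals (left) and 4 B-cell lymphomas minus the same 3 normals (right). Members past an adjusted p of 0.05 from limma are red, EIF4ENIF1 on the left and EIF1B and EIF4B on the right.

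The lymphoma classes differed in their position relative to the normals. In E-J, 7 members lay above every normal array (EIF1, EIF1B, EIF2S1, EIF2S2, EIF3E, EIF3M and EIF4B) and 1 lay below (EIF4E3), where 7.26% and 7.97% of 9400 genes did so. Of these, EIF1 and EIF4E3 overlapped with the normals under quantile normalization and median centring, EIF3E under quantile normalization and EIF2S1 under median centring. EIF1 and EIF4B overlapped when the brightest probe set or the mean of linear signals was used. The difference between E-J and the normals was positive for 37 of 43 members, with a median of 0.46 against 0.05 over all genes. The count was 34 under quantile normalization (median 0.31 against 0.10), 38 under median centring (0.52 against 0.11) and 35 without 3024l (0.31 against -0.09). In K-N, 1 member lay above every normal array (EIF4E) and 3 lay below (EIF2A, EIF2S3 and EIF4EBP2), beside shares of 6.93% and 9.12% of all genes. EIF4E overlapped with the normals when the brightest probe set was used, and EIF4EBP2 when the brightest probe set or the mean of linear signals was used. The gene average of EIF2S3 includes a probe set that followed the sex of the dogs, and without it K-N overlapped with the normals in this gene. Between K-N and the normals 23 of 43 differences were positive, with a median of 0.03 against -0.02. The count was 20 under quantile normalization (median -0.05 against 0.03), 24 under median centring (0.06 against 0.01) and 18 without 3024l (-0.07 against -0.16). The sign of the K-N median thus depended on the setting. Without 3024l, 10 members of K-N lay outside the normals, 4 above (EIF4E, EIF4E3, EIF4ENIF1 and EIF4G2) and 6 below (EIF1B, EIF2A, EIF2S3, EIF3F, EIF3K and EIF4EBP2), where 8.59% and 16% of all genes did so, with the same limit on EIF2S3, whereas in E-J the same 8 members lay outside, beside 9.11% and 14.2% of all genes. Set directly against E-J, K-N was lower in 36 of 43 members (83.7%, against 53% of all genes), with a median of -0.30 beside -0.05. The classes did not overlap in 8 members, 1 higher in K-N (EIF4E3, where 4.45% of all genes lay) and 7 lower (EIF1B, EIF2A, EIF3E, EIF3F, EIF3M, EIF4B and EIF5A2, beside 6.26% of all genes). EIF4B and EIF5A2 overlapped when the brightest probe set or the mean of linear signals stood for a gene, and EIF3M overlapped under median centring.

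**Figure D2:**
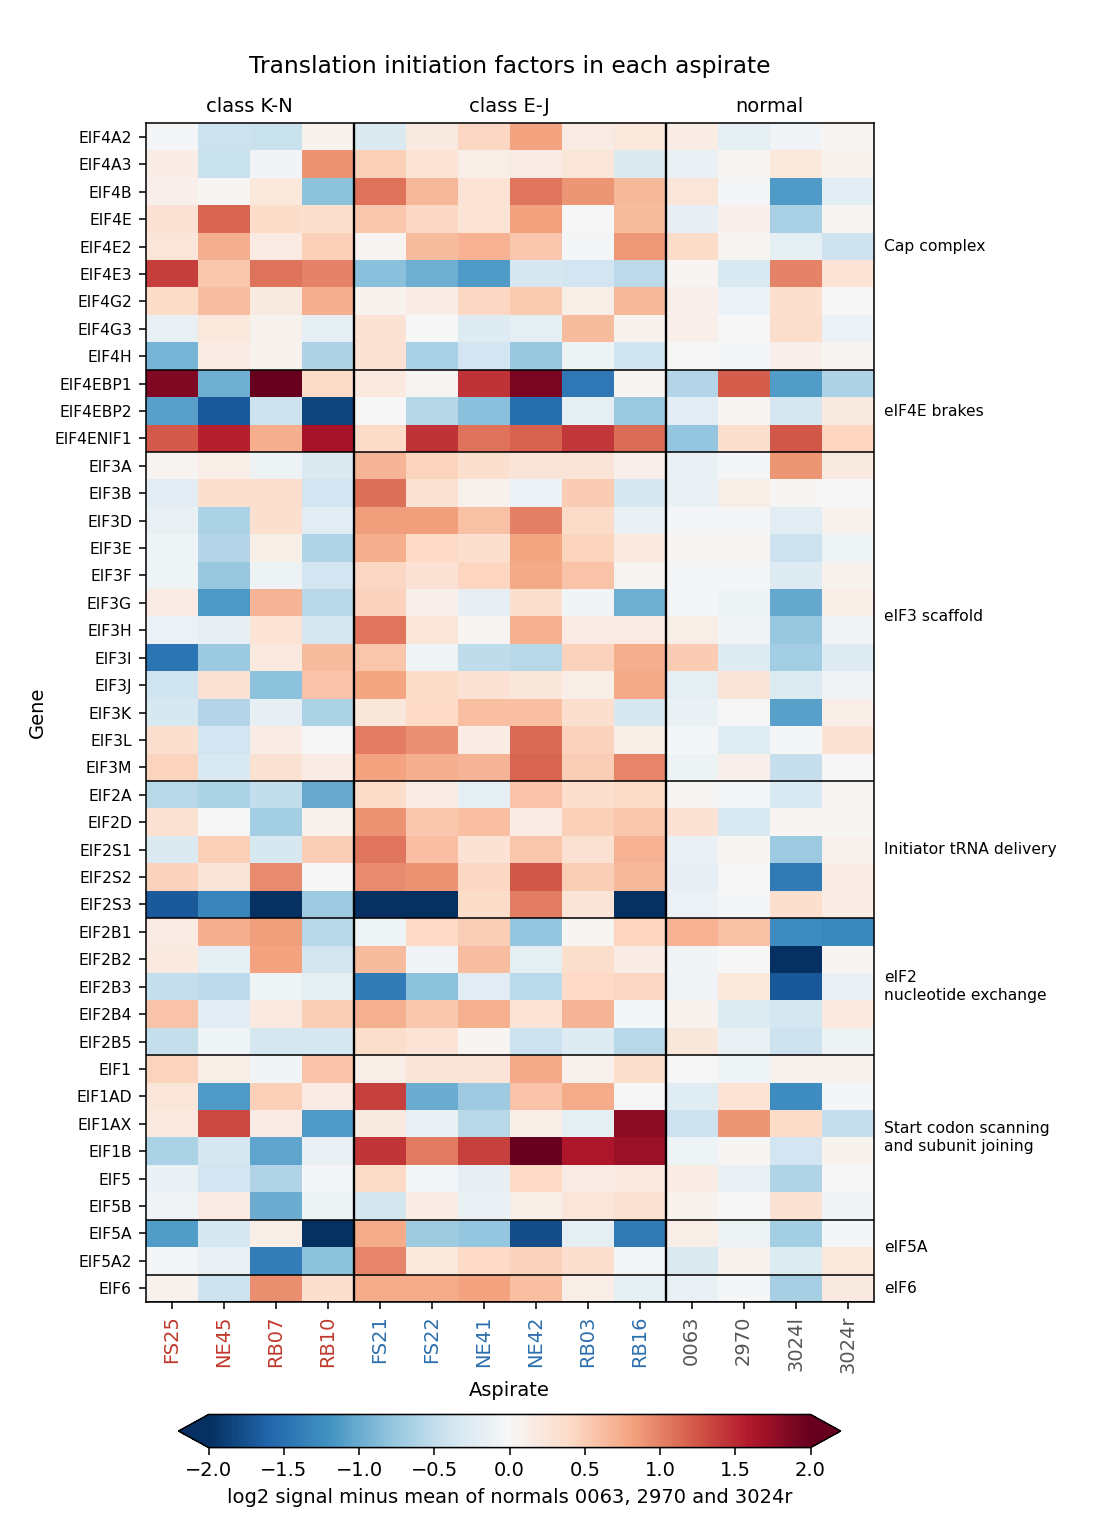
Log2 signal of the 43 members that passed the filter (rows, by role) in each aspirate (columns, with K-N at the left, then E-J, then normal), minus the mean of normals 0063, 2970 and 3024r, with colours capped at 2 and -2. EIF1B, most eIF3 subunits and EIF4B are red across E-J and pale or blue in K-N, and EIF4E3 runs the other way.

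Each clinic sent aspirates of both classes, so K-N could be set against E-J within a site. The difference was negative for 31 of 43 members at FS (1 K-N against 2 E-J, median -0.41), for 28 at NE (1 against 2, median -0.50) and for 33 at RB (2 against 2, median -0.20). The medians of all genes at these sites were -0.07, 0.06 and -0.08. The 8 members without overlap kept their direction at every site, as they must. The classes are also those of the T-cell markers and, apart from MS4A1, of the B-cell markers. The part of cell type in this difference cannot be told apart from that of the class.

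Among the cap complex, EIF4E, the protein that grips the cap, was at 10.12 in FS25, 10.99 in NE45, 10.20 in RB07 and 10.15 in RB10 of K-N. Its lowest, median and highest values in E-J were 9.84, 10.30 and 10.64, and the normals had 9.66 (0063), 9.93 (2970), 9.18 (3024l) and 9.88 (3024r). Every lymphoma except RB03 lay above every normal, and NE45 stood highest. With the brightest probe set alone, K-N overlapped with the normals. The difference between lymphoma and normal was 0.48 (standard error 0.24), which did not pass (adjusted p = 0.273 from limma).

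EIF4E3, a member of the eIF4E family that binds the cap in an unusual way, had the largest positive difference between K-N and E-J among the members. Its K-N values were 9.37 in FS25, 8.53 in NE45, 9.07 in RB07 and 8.98 in RB10. The E-J values ran from 6.86 through a median of 7.31 to 7.66, and the normals had 8.03 (0063), 7.69 (2970), 8.98 (3024l) and 8.26 (3024r). The lymphoma classes thus lay on opposite sides of most normals, with E-J below all 4 and K-N above all but 3024l, although E-J overlapped with the normals under quantile normalization and median centring. The mean of K-N was 8.99 ± 0.35 (SD, n = 4) and that of E-J 7.29 ± 0.33 (SD, n = 6), a 3.24-fold difference. Over all 10 lymphomas the opposite shifts left a difference from normal of -0.02 (standard error 0.53, adjusted p = 0.989 from limma), whose sign turned positive under quantile normalization and median centring. A single probe set reads this gene.

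EIF4E2, a cap-binding relative that competes with eIF4E and represses translation, had K-N values of 7.65 (FS25), 8.14 (NE45), 7.59 (RB07) and 7.89 (RB10). In E-J its range was 7.38 to 8.28 with a median of 8.0, and the normals had 7.78 (0063), 7.47 (2970), 7.21 (3024l) and 7.0 (3024r). The groups overlapped, and the difference of 0.43 between lymphoma and normal (standard error 0.25) did not pass (adjusted p = 0.355 from limma).

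EIF4B, which stimulates the helicase eIF4A, was higher in the B-cell set than in the normals. Its values were 10.62 in FS21, 10.60 in NE42, 10.41 in RB03 and 10.18 in RB16, against 9.76 in 0063, 9.5 in 2970 and 9.31 in 3024r. The difference was 0.93 (standard error 0.23, 1.90-fold, adjusted p = 0.0450 from limma), higher in 4 of 4 lymphomas. In the other E-J lymphomas it was 10.19 (FS22) and 9.80 (NE41). K-N had 9.63 (FS25), 9.55 (NE45), 9.73 (RB07) and 8.71 (RB10), below all of E-J and within the range of the normals, of which 3024l had 8.39. A dim probe set gave the largest of 3 differences (1.59, beside 0.67 and 0.52), and the adjusted p rose above 0.05 in 13 alternatives (0.054 to 0.225), among them the fits without any 1 of the 3 normals and those without FS21, NE42 or RB03.

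EIF4A2, the helicase subunit that the array reads here, had K-N values of 13.08 (FS25), 12.68 (NE45), 12.66 (RB07) and 13.17 (RB10). In E-J it lay between 12.82 and 13.91 with a median of 13.30, and in the normals at 13.24 (0063), 12.93 (2970), 13.06 (3024l) and 13.14 (3024r). The groups overlapped throughout, and the lymphoma difference was 0.07 (standard error 0.27, adjusted p = 0.917 from limma), with a negative sign under quantile normalization. EIF4G2, an eIF4G relative that lacks the eIF4E-binding part and serves translation without the cap, had 14.35 (FS25), 14.59 (NE45), 14.16 (RB07) and 14.71 (RB10) in K-N. Its E-J values ran from 14.05 through 14.26 to 14.64, beside 14.08 (0063), 13.86 (2970), 14.31 (3024l) and 13.99 (3024r) in the normals. Its difference was 0.38 (standard error 0.21, adjusted p = 0.321 from limma). The remaining members of the complex, EIF4A3 of the exon junction complex, the scaffold EIF4G3 and the helicase cofactor EIF4H, had lymphoma differences between -0.33 and 0.16 and overlapped between all groups.

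EIF4ENIF1, a protein that binds eIF4E, carries it into the nucleus and represses bound messages, was the member that rose over all lymphomas. K-N had 8.11 (FS25), 8.45 (NE45), 7.63 (RB07) and 8.54 (RB10), and E-J ran from 7.28 through a median of 8.04 to 8.34. The normals in the test had 6.13 (0063), 7.23 (2970) and 7.32 (3024r), and 3024l, outside the test, had 8.13. The difference was 1.18 (standard error 0.31, 2.26-fold, adjusted p = 0.0451 from limma). Of 10 lymphomas, 9 lay above the 3 normals of the test, and FS21 lay below 3024r. Part of it came from a dim probe set, whose log2 signal was 1.51 in 0063 and 3.58 in FS21. Without that probe set the difference was 0.78 (adjusted p = 0.110), and when each probe set was tested alone, none of the 99 member probe sets passed. The adjusted p rose above 0.05 in 20 alternatives (0.057 to 0.239), among them the fits without any 1 normal.

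EIF4EBP2 encodes a binding protein that sequesters eIF4E when mTOR is idle. In K-N its gene average was at 10.00 (FS25), 9.40 (NE45), 10.66 (RB07) and 9.22 (RB10), below every normal array, which had 10.87 (0063), 11.12 (2970), 10.74 (3024l) and 11.25 (3024r). On each of its 2 probe sets alone K-N overlapped with the normals, as it also did with the mean of linear signals. The E-J values ran from 9.57 through 10.42 to 11.09 and reached into the normal range. Over all lymphomas the difference was -0.89 (standard error 0.38, adjusted p = 0.208 from limma), so it did not pass, although the methods' t-test with Benjamini-Hochberg adjustment called it. EIF4EBP1, the other binding protein on the array, was dim, with at least 100 on 4 of 14 arrays. Its K-N values were 7.10 (FS25), 4.27 (NE45), 7.26 (RB07) and 5.63 (RB10), its E-J range was 3.81 to 7.15 with a median of 5.38, and the normals had 4.66 (0063), 6.47 (2970), 4.13 (3024l) and 4.63 (3024r). At such levels no order between the groups is read.

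**Figure D3:**
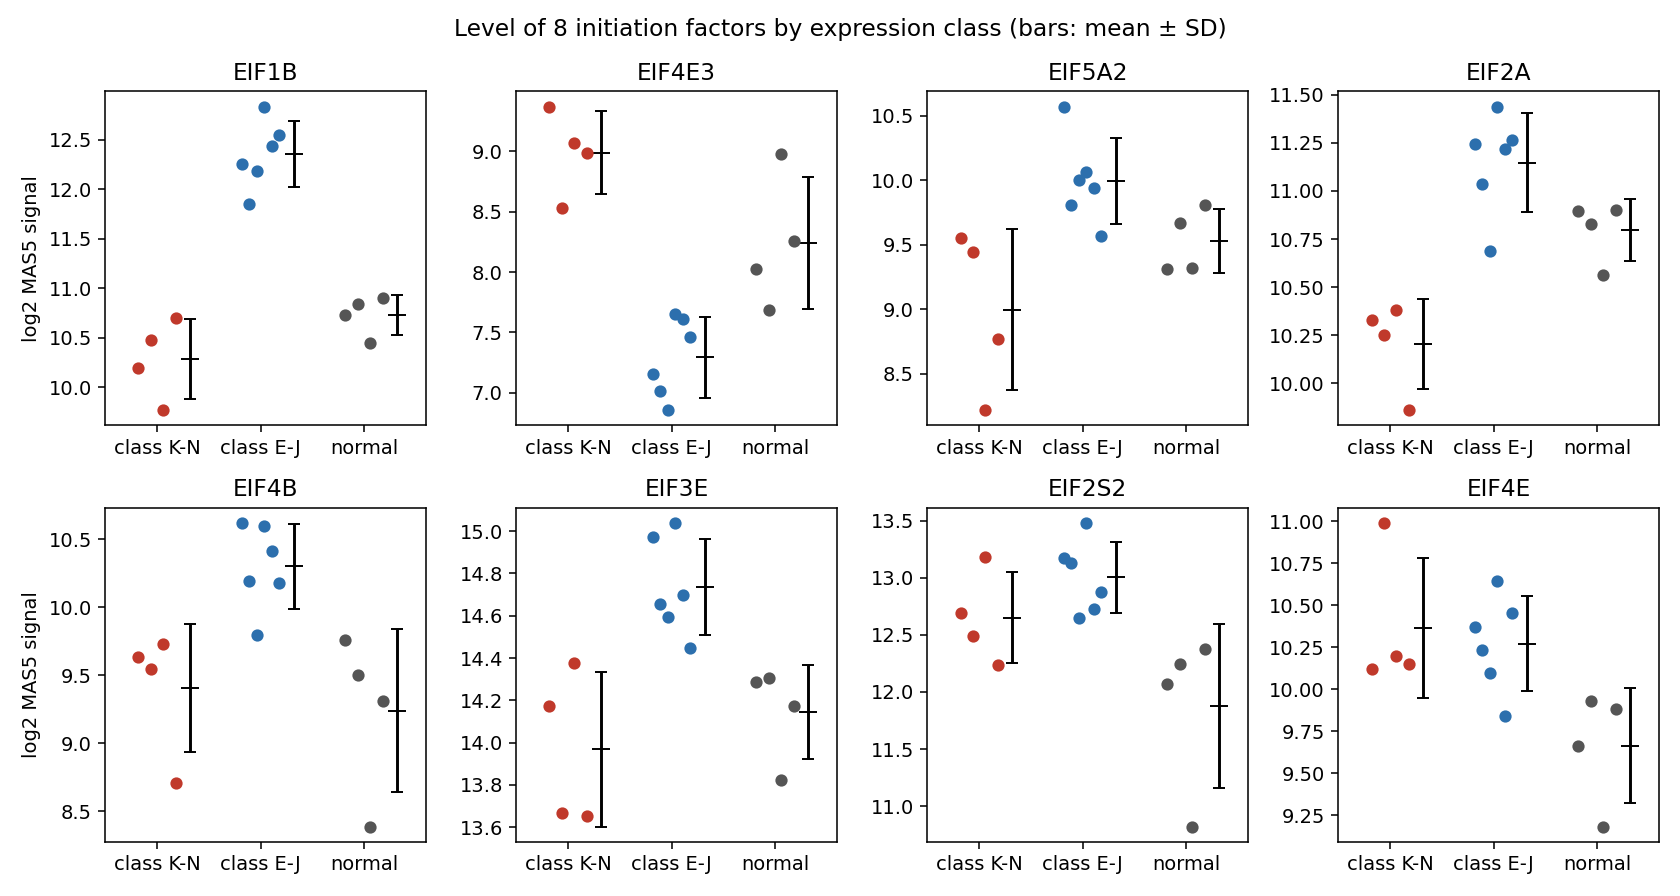
Log2 MAS5 signal (vertical axes, each with its own range) of 8 initiation factors in each aspirate (points), with the mean and SD of class K-N (n = 4), class E-J (n = 6) and the normal arrays (n = 4) as bars. EIF1B separates E-J from all other aspirates, EIF4E3 is lowest in E-J and highest in K-N apart from normal 3024l, and EIF2A is lowest in K-N.

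The eIF3 complex, the scaffold that holds the small ribosomal subunit to the messenger RNA, differed in the same direction in the gene averages of all its measured subunits between the lymphoma classes. All 12 measured subunits (EIF3A, EIF3B and EIF3D to EIF3M) were lower on average in K-N than in E-J, with differences from -0.77 to -0.16 and a median of -0.56. The direction held in 12 of 12 under quantile normalization and under median centring. Within sites it held in 12 of 12 at FS, 10 at NE and 11 at RB, with medians of -0.64, -1.08 and -0.30. EIF3B and EIF3J ran the other way at NE and EIF3G at RB. The average of EIF3I between the classes, -0.45, was lowered by a dim probe set (-1.94), and its bright ones gave -0.16 and -0.15. Over all lymphomas its average was -0.08, whereas its bright probe sets gave 0.54 and 0.39. In EIF3B the bright probe sets disagreed in sign between the classes (-0.51 to 0.23).

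EIF3E showed the largest gap among the subunits, with 14.17 (FS25), 13.67 (NE45), 14.38 (RB07) and 13.65 (RB10) in K-N. The lowest, median and highest E-J values were 14.45, 14.68 and 15.04, and the normals had 14.29 (0063), 14.30 (2970), 13.82 (3024l) and 14.17 (3024r). E-J lay above all other aspirates, although it overlapped with the normals under quantile normalization, and K-N overlapped with the normals. The means were 13.97 ± 0.36 (SD, n = 4) in K-N, 14.73 ± 0.23 (SD, n = 6) in E-J and 14.15 ± 0.22 (SD, n = 4) in the normals. EIF3F, which was at 12.49 (FS25), 11.81 (NE45), 12.48 (RB07) and 12.19 (RB10) in K-N, was likewise below all of E-J (12.63 to 13.33). The normal values were 12.53 (0063), 12.54 (2970), 12.32 (3024l) and 12.64 (3024r), which lie between the lymphoma classes with an overlap on each side.

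EIF3M, another subunit, lay highest in E-J at 13.18 to 13.85 with a median of 13.45. K-N had 13.12 (FS25), 12.37 (NE45), 12.99 (RB07) and 12.84 (RB10), and the normals had 12.58 (0063), 12.79 (2970), 12.22 (3024l) and 12.67 (3024r). Here E-J stood above both other groups, and 3 of 4 K-N lymphomas were above the normals as well. Against the 3 normals the difference was 0.54 over all lymphomas (standard error 0.28, adjusted p = 0.297 from limma) and 0.86 in the B-cell set (standard error 0.24, adjusted p = 0.0588). Neither passed.

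Against the normals, all 12 subunits were higher in E-J (median 0.54), 11 of 12 under quantile normalization and without 3024l. In K-N 5 of 12 were higher and 7 lower (median -0.07), but 2 were higher under quantile normalization and 3 without 3024l. No subunit passed in either test against the normals, and the median over the complex was 0.18 for all lymphomas and 0.46 for the B-cell set. The count of subunits with a positive difference over all lymphomas was 10, but 5 under quantile normalization and 12 under median centring, so no direction for the complex is read from that comparison. The median of the 12 subunits in an aspirate, as a deviation from the 3 normals, was -0.10 in FS25, -0.48 in NE45, 0.17 in RB07 and -0.32 in RB10 of K-N. It ran from 0.12 (RB16) to 0.75 (FS21) in E-J, and was -0.04 (0063), -0.03 (2970), -0.35 (3024l) and 0.04 (3024r) in the normals. RB07 lay above RB16, so the lymphoma classes overlapped in this summary.

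**Figure D4:**
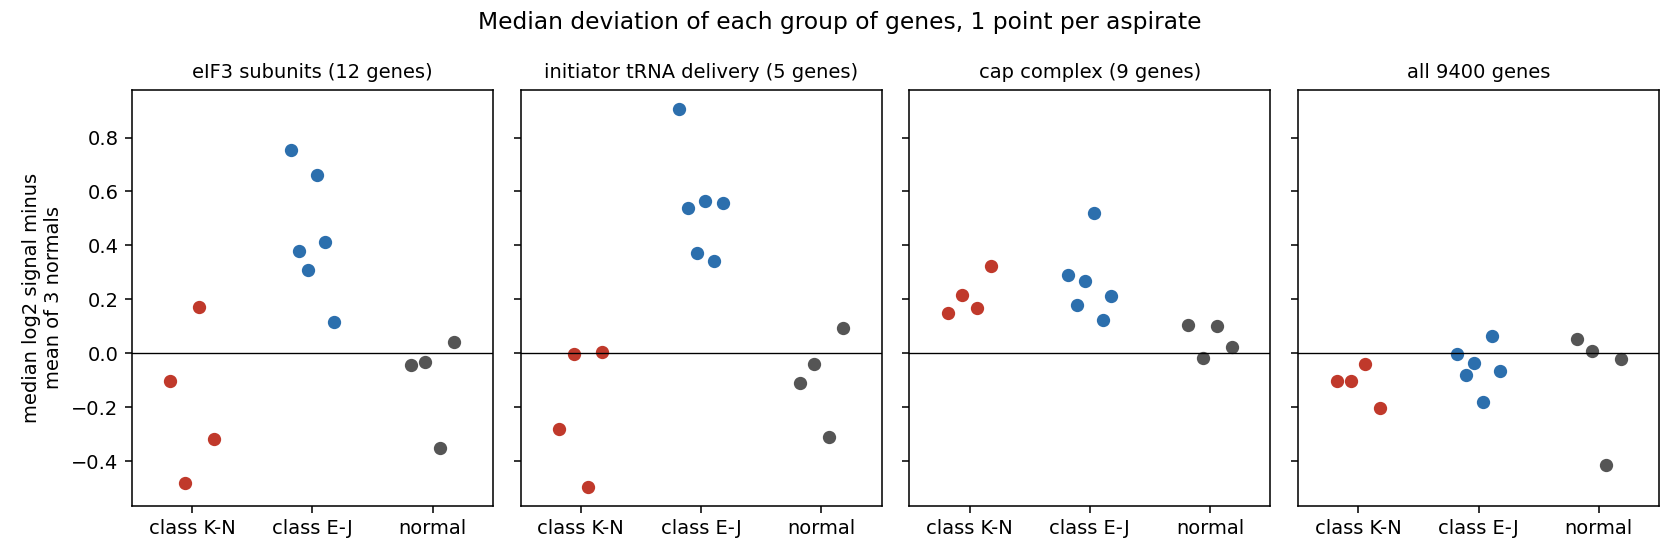
Median over the genes of a group of the log2 signal minus the mean of 3 normals (vertical axis), with 1 point per aspirate of class K-N, class E-J and normal node, for eIF3, the factors of initiator tRNA delivery, the cap complex and all 9400 genes. The tRNA delivery factors of E-J sit between 0.34 and 0.91, above K-N (-0.50 to 0.00), and the cap complex shows no such gap.

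The initiator tRNA reaches the ribosome on eIF2, a trimer of an alpha (EIF2S1), a beta (EIF2S2) and a gamma (EIF2S3) subunit. EIF2S1, whose phosphorylation shuts down initiation under stress, had 11.61 (FS25), 12.36 (NE45), 11.56 (RB07) and 12.38 (RB10) in K-N. Its E-J values ran from 12.18 through 12.47 to 12.95, and the normals had 11.76 (0063), 11.93 (2970), 11.15 (3024l) and 11.98 (3024r). E-J lay above every normal, although it overlapped with them under median centring, whereas K-N split into a pair above and a pair inside the normal range. The difference over all lymphomas was 0.39 (standard error 0.28, adjusted p = 0.463 from limma).

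EIF2S2, which binds the factors that activate the GTPase of eIF2, had the second smallest p over all lymphomas. K-N had 12.69 (FS25), 12.49 (NE45), 13.18 (RB07) and 12.24 (RB10), and E-J ran from 12.65 to 13.48 with a mean of 13.01 ± 0.31 (SD, n = 6). The normals had 12.07 (0063), 12.25 (2970), 10.82 (3024l) and 12.38 (3024r), so that only RB10 among the 10 lymphomas reached down into their range. The difference of 0.63 (standard error 0.26, 1.55-fold) did not pass over all genes (adjusted p = 0.188 from limma), nor did 0.83 in the B-cell set (standard error 0.26, adjusted p = 0.0803).

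EIF2A is a separate protein that can bring initiator tRNA to ribosomes without eIF2. In K-N it had 10.33 (FS25), 10.25 (NE45), 10.38 (RB07) and 9.86 (RB10). E-J ran from 10.69 through 11.23 to 11.44, and the normals were at 10.89 (0063), 10.83 (2970), 10.56 (3024l) and 10.90 (3024r). K-N was below every other aspirate, with a mean of 10.20 ± 0.24 (SD, n = 4) beside 11.15 ± 0.26 (SD, n = 6) in E-J, a 1.92-fold difference. The lymphoma difference was -0.10 (standard error 0.33, adjusted p = 0.892 from limma) and turned positive under median centring and with 3024l in place of 3024r. EIF2D, which acts in similar ways and in ribosome recycling, was 0.61 lower in K-N than in E-J, with overlap.

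EIF2S3, the gamma subunit that binds GTP and the tRNA, had the widest spread of its role. Its K-N values were 9.72 (FS25), 10.08 (NE45), 8.16 (RB07) and 10.68 (RB10), its E-J values ran from 8.65 through 10.30 to 12.43, and the normals had 11.29 (0063), 11.36 (2970), 11.72 (3024l) and 11.55 (3024r). The lymphoma difference of -1.30 had a standard error of 0.82 and did not pass (adjusted p = 0.393 from limma). This spread came from 1 of its 3 probe sets, which followed the sex recorded for the dog. In the 5 lymphomas from males it read 11.86 (NE42), 11.57 (NE41), 8.0 (NE45), 9.28 (RB10) and 11.13 (RB03), and in the 5 from females it read 1.88 (RB07), 5.97 (FS25), 1.19 (FS21), 0.92 (RB16) and 1.45 (FS22). The male and female ranges did not overlap, and the normal arrays, whose sex was not used, lay between 10.90 and 11.34.

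Of 43035 probe sets, this was the only 1 with a signal of at least 100 in all 5 male and under 100 in all 5 female lymphomas, and 6 showed the opposite pattern. Its mean difference between male and female lymphomas was 8.09, the largest in size among all probe sets in either direction. The pattern was noticed after the values were seen and carries no test, and its cause was not tested. Without this probe set, the gene's level was 11.60 (FS25), 11.12 (NE45), 11.31 (RB07) and 11.37 (RB10) in K-N. The mean of E-J was then 12.41 ± 0.40 (SD, n = 6), that of the normals 11.70 ± 0.20 (SD, n = 4), and K-N lay below all of E-J with a difference of -1.06. K-N then overlapped with the normals, which had 11.48 (0063), 11.60 (2970), 11.91 (3024l) and 11.84 (3024r). The lymphoma difference became 0.35 (adjusted p = 0.647), with the opposite sign, so that no direction for EIF2S3 in lymphoma is read from the gene average.

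**Figure D5:**
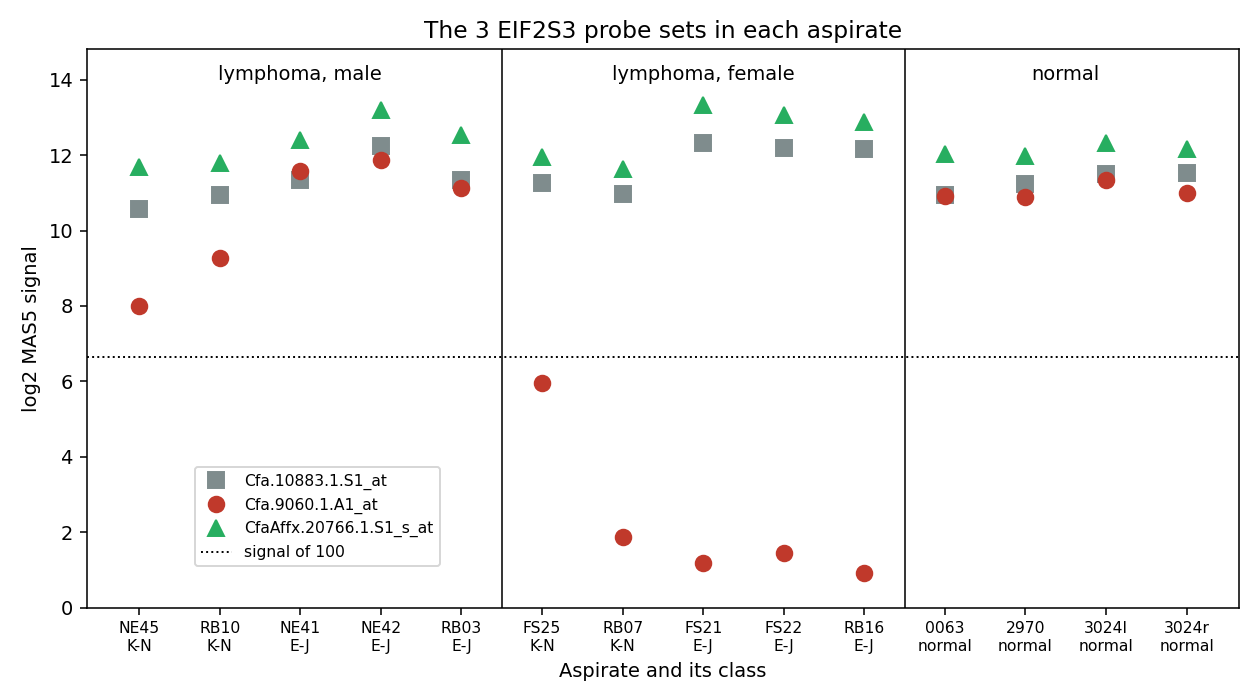
Log2 MAS5 signal (vertical axis) of the 3 EIF2S3 probe sets in lymphomas of male dogs, lymphomas of female dogs and normal nodes, with the class under each aspirate and a dotted line at a signal of 100. The probe set drawn as circles lies between 8.0 and 11.86 in males and between 0.92 and 5.97 in females, and the other probe sets lie between 10.56 and 13.32 in all aspirates.

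The 5 subunits of eIF2B, the factor that recharges eIF2 with GTP, showed no shared direction over all lymphomas. Against all 4 normal arrays, E-J had 5 of 5 positive differences (median 0.40) and K-N 4 of 5 (median 0.34), figures that include the very low EIF2B2 value of 3024l. EIF2B4, with 8.77 (FS25), 7.98 (NE45), 8.40 (RB07) and 8.70 (RB10) in K-N, ran from 8.17 through 8.81 to 8.92 in E-J. Its normal values were 8.27 (0063), 7.94 (2970), 7.85 (3024l) and 8.40 (3024r), and the groups overlapped. The lymphoma difference was 0.39 (standard error 0.25, adjusted p = 0.393 from limma), and its bright probe sets gave opposite signs (-0.34 and 0.45). The differences of the other subunits were 0.17 for EIF2B1, 0.19 for EIF2B2, -0.34 for EIF2B3 and -0.19 for EIF2B5, none past the threshold. The negative average of EIF2B3 came from dim probe sets (-0.94 and -1.07), and its bright ones gave 0.36 and 0.27. The bright probe set of EIF2B1 gave -0.03. EIF2B2 was at 2.25 in 3024l and at 8.21 to 8.30 in the other normals.

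EIF1B, a close relative of the start codon gatekeeper EIF1, had the largest difference between the lymphoma classes. K-N had 10.19 (FS25), 10.48 (NE45), 9.77 (RB07) and 10.70 (RB10), and the lowest, median and highest values of E-J were 11.86, 12.35 and 12.84. The normals were at 10.73 (0063), 10.84 (2970), 10.44 (3024l) and 10.90 (3024r). All 6 E-J lymphomas stood above all 8 other aspirates, including FS22, the lymphoma labelled T-cell that carried most B-cell markers. RB07 and RB10, labelled B-cell with T-cell markers, stood with K-N.

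The mean of EIF1B was 10.28 ± 0.40 (SD, n = 4) in K-N and 12.35 ± 0.34 (SD, n = 6) in E-J, a 4.2-fold difference, and 10.73 ± 0.20 (SD, n = 4) in the normals. Within sites K-N was lower than E-J by 1.87 at FS, 2.03 at NE and 2.26 at RB on the log2 scale. In the B-cell set, where all 4 lymphomas belong to E-J, the difference from the 3 normals was 1.70 (standard error 0.22, 3.24-fold, adjusted p = 0.00959 from limma). It missed the threshold without 0063 (adjusted p = 0.0547), without 2970 (0.0857), without 3024r (0.0631) and with the methods' t-test (0.0520), and held in 15 other alternatives. Over all 10 lymphomas, which mix the classes, the difference was 0.70 (standard error 0.63, adjusted p = 0.563). The gene has 1 probe set, whose identifier ends in _s_at, the suffix for probes that can match more than 1 transcript. The gene average of EIF1 itself, which is read by 5 probe sets, did not follow this pattern, although 1 of these probe sets did.

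EIF1, which keeps the scanning ribosome from starting at the wrong codon, had 13.10 (FS25), 12.79 (NE45), 12.60 (RB07) and 13.23 (RB10) in K-N. E-J ran from 12.74 through 12.91 to 13.41, and the normals were at 12.66 (0063), 12.57 (2970), 12.73 (3024l) and 12.73 (3024r). E-J lay above the normals by a narrow margin, which was lost under quantile normalization and median centring. K-N differed from E-J by -0.03, an average over bright probe sets of opposite sign (-0.48 to 0.29), of which those at -0.43 and -0.48 were the negative ones. On each of these K-N lay below all of E-J, and on the one at -0.43 E-J also lay above every normal. The lymphoma difference was 0.29 (standard error 0.21, adjusted p = 0.452 from limma), with bright probe sets between -0.10 and 0.50. Among the other members of this role, EIF5, which triggers GTP hydrolysis on eIF2, was 0.45 lower in K-N than in E-J and EIF5B, which joins the ribosomal subunits, was 0.30 lower, both with overlap. EIF1AX, which works with eIF1, had means of 8.33 ± 1.00 (SD, n = 4) in K-N, 8.39 ± 0.82 (SD, n = 6) in E-J and 8.28 ± 0.65 (SD, n = 4) in the normals. That spread came from a probe set that was under 100 on all 14 arrays. On its 2 bright probe sets K-N was lower than E-J by 0.48 and 0.53 on the log2 scale, and E-J differed from the normals by 0.71 and 0.92, with E-J above every normal on the second of them. EIF1AD, named for its eIF1A domain, had SDs of 0.72 in K-N and 0.91 in E-J, and its single bright probe set differed by -0.58 between K-N and E-J, with overlap.

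EIF5A and EIF5A2 encode the proteins that carry the modified lysine hypusine and help the ribosome through difficult stretches. EIF5A had 9.53 (FS25), 10.29 (NE45), 10.78 (RB07) and 8.53 (RB10) in K-N, and ran from 8.87 through 9.90 to 11.40 in E-J. The normals were at 10.78 (0063), 10.55 (2970), 9.97 (3024l) and 10.62 (3024r). The lymphomas spread on both sides of the normals (difference -0.76, standard error 0.50, adjusted p = 0.420 from limma). EIF5A2 had 9.55 (FS25), 9.44 (NE45), 8.22 (RB07) and 8.77 (RB10) in K-N, just below E-J at 9.57 to 10.57 with a median of 9.97. FS25 and RB16, the nearest lymphomas of the classes, were closer than the SD of either class (0.62 in K-N and 0.33 in E-J). The normals, at 9.31 (0063), 9.67 (2970), 9.32 (3024l) and 9.81 (3024r), overlapped with both, and the lymphoma difference was -0.0026 (standard error 0.40, adjusted p = 0.998 from limma).

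EIF6, which keeps the large ribosomal subunit apart from the small one until it is mature, had 10.24 (FS25), 9.75 (NE45), 11.10 (RB07) and 10.48 (RB10) in K-N. E-J ran from 9.98 through 10.84 to 10.97, beside 10.02 (0063), 10.13 (2970), 9.51 (3024l) and 10.35 (3024r) in the normals. The groups overlapped, and the difference of 0.37 (standard error 0.30) did not pass (adjusted p = 0.512 from limma).

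The 3 lymphomas labelled T-cell did not separate from the 7 labelled B-cell in any initiation factor. Of 43 differences 32 were negative (74.4%, against 50.3% of all genes). No member of 43 passed in either direction, and neither did any of 8567 genes, a share of 0% higher and 0% lower. At an unadjusted p under 0.05 no member was higher and 1 was lower, beside 117 and 196 of all genes. RB07, RB10 and FS22 carried markers that go against their labels. Without them, a choice made after the data were seen, the T-cell label is left with FS25 and NE45, both of K-N, and the B-cell label with 5 lymphomas of E-J, so that the comparison becomes that of the classes and is given with no test. EIF1B was then lower by 2.12 on the log2 scale, and EIF4E3 had a difference of 1.60.

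Agreement among the probe sets of a gene limits these values. Of 106 member probe sets, 83 had a signal of at least 100 on all 14 arrays, and 11 members had a single probe set. Among 28 members with several such bright probe sets, the sign was shared in 20 between lymphoma and normal and in 19 between K-N and E-J. Besides EIF1 and EIF2B4, the bright probe sets of EIF2B5, EIF3A, EIF3F, EIF3H, EIF4G3 and EIF5 disagreed in sign between lymphoma and normal, with the widest range in EIF5 (-0.45 to 0.27) and EIF2B5 (-0.54 to 0.17).

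EIF2B5, the catalytic subunit of eIF2B, had 9.21 (FS25), 9.61 (NE45), 9.33 (RB07) and 9.33 (RB10) in K-N, 9.13 to 10.04 with a median of 9.57 in E-J, and 9.92 (0063), 9.56 (2970), 9.28 (3024l) and 9.58 (3024r) in the normals. EIF5, the GTPase activator, had 11.24 (FS25), 10.99 (NE45), 10.78 (RB07) and 11.33 (RB10) in K-N, 11.21 to 11.77 with a median of 11.56 in E-J, and 11.53 (0063), 11.22 (2970), 10.78 (3024l) and 11.37 (3024r) in the normals. All 3 groups overlapped in both genes. EIF3A, the largest eIF3 subunit, had 13.13 (FS25), 13.19 (NE45), 12.96 (RB07) and 12.78 (RB10) in K-N, 13.17 to 13.75 with a median of 13.36 in E-J, and 12.92 (0063), 13.04 (2970), 13.95 (3024l) and 13.25 (3024r) in the normals. EIF3H had 12.85 (FS25), 12.80 (NE45), 13.24 (RB07) and 12.62 (RB10) in K-N, 13.02 to 14.04 with a median of 13.17 in E-J, and 13.08 (0063), 12.91 (2970), 12.21 (3024l) and 12.91 (3024r) in the normals. In both subunits 1 K-N lymphoma reached into the range of E-J, and 3024l was the normal at the extreme. EIF4G3 had 11.16 (FS25), 11.54 (NE45), 11.38 (RB07) and 11.14 (RB10) in K-N, 11.05 to 11.96 with a median of 11.35 in E-J, and 11.42 (0063), 11.33 (2970), 11.68 (3024l) and 11.20 (3024r) in the normals, with no separation of any group.

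The rest of the translation machinery was read from 3 lists. Of 14 elongation and termination factors, none passed over all lymphomas and 1 rose in the B-cell set (where 3.48% of all genes rose), GSPT1, the GTPase that works with the release factor (difference 0.92, standard error 0.21, adjusted p = 0.0363 from limma). EEF1B2, the exchange factor of elongation factor 1, came nearest over all lymphomas (1.05, standard error 0.29, adjusted p = 0.0570), followed by EFL1, which acts in ribosome maturation (0.52, standard error 0.23, adjusted p = 0.225). The median difference of this list was 0.07 over all lymphomas, 0.31 in the B-cell set and -0.69 between K-N and E-J. Of 19 regulators of initiation, none passed over all lymphomas and 1 rose in the B-cell set, beside the same share of all genes, PABPC1, which binds the poly(A) tail and loops it to the cap (0.91, standard error 0.21, adjusted p = 0.0346). DENR, a partner of MCTS1 in ribosome recycling, had a difference of 0.67 over all lymphomas (standard error 0.30, adjusted p = 0.225). The medians of the regulators were 0.20 over all lymphomas, 0.40 in the B-cell set and -0.39 between K-N and E-J. None of 18 cytosolic tRNA synthetases, which charge tRNAs with their amino acids, passed in either test, with the smallest p over all lymphomas for the valine enzyme VARS1 (-0.87, adjusted p = 0.151) and the threonine enzyme TARS1 (-0.65, adjusted p = 0.176), and their medians were 0.03 over all lymphomas, 0.02 in the B-cell set and -0.23 between K-N and E-J.

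Of the 51 genes of the lists, 5 were lower in all of K-N than in all of E-J (9.8%, beside 6.26% of all genes) and 0 were higher (beside 4.45%). These were the elongation factor EEF1A1, the poly(A)-binding protein PABPC4, the recycling factor MCTS1, the synthetase EPRS1 and EIF2AK2. EIF2AK2, an interferon-induced kinase that phosphorylates eIF2, was singled out after its values were seen. It was at 5.04 (FS25), 5.87 (NE45), 7.95 (RB07) and 7.23 (RB10) in K-N and at 9.14 to 11.55 with a median of 10.23 in E-J. The normals had 8.47 (0063), 8.95 (2970), 7.98 (3024l) and 8.40 (3024r), between the classes and without overlap with either. K-N and E-J differed by -3.90 in mean log2 signal, beside -2.07 for EIF1B among the members.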

How the data were processed

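The authors extracted RNA with the RNeasy Micro kit, amplified it with WT-Ovation Pico, hybridised it to Affymetrix arrays and summarised probe intensities per probe set with MAS5 (version not given in the sources used here). The deposited intensity values are linear signals, scaled by the authors on each array (the central 96% of probe sets averaged 500.1). Such scaling fixes the mean of an array, so that differences are relative to it. Of 43035 probe sets, 111 were controls, 13332 had no symbol and 439 had several, and the log2 signals of the rest were averaged per gene, with symbols from the platform annotation. Amplification without molecular counts leaves the number of arrays as the limit on precision. The p-values weigh a difference in group means against the spread between dogs of a group.

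Groups followed the labels, and the B-cell set followed the study's text, where it was chosen in part by expression profile. The classes were read from the letters of the study's clustering figure and its list of samples. Differences were fitted with limma 3.58.1 (lmFit, eBayes) in R 4.3.3 over all genes with a signal of at least 100 on at least 3 arrays, adjusted after Benjamini and Hochberg and called at 0.05. The fits were tested on simulated data with independent noise, in which 100 genes changed by 1 and 100 by 2 on the log2 scale. Over all lymphomas 12 and 54 of these were found, in the B-cell set 9 and 41, and between labels 4 and 42. False calls numbered 3, 3 and 2. Most changes of 1 were thus missed, so a member that did not pass is not shown to be unchanged. The members, lists and tests were chosen with earlier results of these data known. Members named with values were the 12 with the smallest p over all lymphomas, the 6 with the largest class difference, factors chosen by role, those with discordant probe sets, and up to 2 genes of each other list by smallest p. Alternatives changed the filter, scaling, pseudocount, floor, gene summary, variance model, test, threshold and arrays. Figures were drawn with matplotlib 3.10.9.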

Additional observations from a re-analysis of the deposited data

Results flagged for a closer look

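An aspirate stood apart by Dixon's criterion, the gap to its nearest neighbour over the range of the group, in 4 of 129 groups of values. The criterion's critical values are set so that about 1 in 20 groups of normally distributed values passes by chance, a rate not measured in these data. EIF1AX, which works with eIF1, was at 9.98 in RB16 and between 7.64 and 8.38 in the other E-J lymphomas. This came from its probe set that was under 100 on all 14 arrays (6.23 in RB16), and on the bright ones RB16, at 10.90 and 12.82, was near the others (9.71 to 11.29 and 11.99 to 12.65). EIF4E, the cap-binding protein, was at 10.99 in NE45 and between 10.12 and 10.20 in the other K-N lymphomas. EIF4ENIF1, which binds eIF4E, was at 7.28 in FS21 and between 7.98 and 8.34 in the other E-J lymphomas. EIF2B2, a subunit of the exchange factor of eIF2, was at 2.25 in normal 3024l and between 8.21 and 8.30 in the other normals.

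The classes lay on opposite sides of the normal mean, with every lymphoma of each class on its own side, in 3 of 43 members (6.98%) and in 271 of 9400 genes (2.88%). In EIF1B K-N was at -0.44 and E-J at 1.63 from the normal mean, a difference between them of -2.07. In EIF3F, a subunit of eIF3, the values were -0.27 and 0.48, a difference of -0.75. In EIF4E3, the unusual cap-binding protein, they were 0.75 and -0.94, a difference of 1.70. The difference was not tested in any of them, since the classes were drawn from the same profiles.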

How the results depend on the processing

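Depth in the sense of reads does not apply to arrays, and their number limits the precision, with 3 normals in each test. Over all lymphomas 1 of 43 members was called as reported (beside 5.05% of all genes). The count was 0 with no filter (beside 1.28% of all genes), median centring (3.72%), log2(signal + 50) (6.84%), signals raised to 100 (11.3%) or the mean of linear signals (6.93%). It was also 0 with the brightest probe set (4.44%), 3024l in place of 3024r (2.13%) or both averaged (3.66%). With each probe set by itself it was 0, beside 225 higher and 495 lower of 19358 probe sets. It was 0 too without 2 dim or sex-related probe sets (chosen after seeing the data). It was 2 of 43 at an adjusted p under 0.2 (4.65%, beside 17% of all genes) and 5 of 43 with the methods' t-test (EIF2S2, EIF3M, EIF4E and EIF4G2 higher, EIF4EBP2 lower; 11.6%, beside 15.3% of all genes), and 0 to 1 with an array left out. In the B-cell set the count, 2 as reported, was 1 with no filter (beside 1.28% of all genes), median centring (9.02%), the brightest probe set (11.3%), 3024l in place of 3024r (2.85%) or both averaged (8.23%). It was 4 of 42 with signals raised to 100 or limma with trend (9.52%, beside 21.8% and 15.7% of all genes). It was 0 with the methods' t-test (beside 0.0964% of all genes), 8 of 42 at 0.2 (19%, beside 34.1%), and 0 to 2 with an array left out. Shares of all genes are not given for fits with an array left out. Between labels the count was 0 as reported, beside 0% of all genes higher and 0% lower. It was also 0 in 22 alternatives, for which shares of all genes are not given. Without RB07, RB10 and FS22 the arrays left are K-N against E-J. That fit is no test of the labels, and its calls are not given. The members of K-N without overlap with the normals were 4, 2 with the brightest probe set (beside 6.96% higher and 9.31% lower of all genes) and 10 without 3024l (EIF4E, EIF4E3, EIF4ENIF1 and EIF4G2 higher, EIF1B, EIF2A, EIF2S3, EIF3F, EIF3K and EIF4EBP2 lower, beside 8.59% and 16% of all genes). The gene average of EIF2S3 among them includes the sex-related probe set. EIF4E was lost with the brightest probe set, and EIF4EBP2 with linear means and with the brightest probe set. Those of K-N against E-J were 8, and 8 to 11 with an array left out (11 without RB16). With an array left out, 4.82% to 6.62% of all genes were higher without overlap and 6.69% to 8.56% lower. The members without overlap were 7 with linear means (beside 5.44% higher and 6.27% lower of all genes) and with the brightest probe set (4.97% and 5.46%). In both, EIF4B and EIF5A2 overlapped and EIF2S3 did not. Under median centring EIF3K took the place of EIF3M (beside 3.92% and 5.08%). Those of E-J against the normals were 8, and 6 (median centring, beside 6.83% and 7.65% of all genes) to 10 (brightest probe set, beside 6.39% and 8.92%) under other settings. EIF1 and EIF4E3 were lost under quantile normalization and median centring, EIF3E under quantile normalization and EIF2S1 under median centring. EIF1 and EIF4B were lost with linear means and with the brightest probe set. Why these counts moved was not tested.

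Signs turned in 33 of 627 alternative values of 21 named members, none of them a called value. Over all lymphomas EIF2S3 was 0.13 with linear means, 0.39 with the brightest probe set and 0.35 without its sex-related probe set. EIF4E3 was 0.24 with quantile normalization, 0.12 with median centring, 0.017 with log2(signal + 50) and -0.18 to 0.11 with an array left out. EIF5A2 was 0.070 with quantile normalization, 0.13 with median centring, 0.16 with 3024l, 0.078 with the average and -0.14 to 0.15 with an array left out. EIF2A was 0.030 with median centring and 0.0076 with 3024l. EIF4B was -0.0025 with the brightest probe set, and EIF3E was -0.25 with quantile normalization. EIF4A2 was -0.18 with quantile normalization and -0.022 to 0.14 with an array left out. EIF4EBP1 was -0.038 with linear means and -0.035 with the brightest probe set. A fit with dog as a random block could not be fitted, since a single dog gave a pair of arrays. No paired analysis was possible because the lymphoma and normal dogs share no pairing.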
